A study of Homo sapiens with 12 samples.

Results

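The 39 genes described here encode the transcription factor ATF4, its regulators and targets, and the factors and chaperones of the unfolded protein response (UPR). They were chosen by name, as rows of the deposited table whose Ensembl ID maps to a listed symbol, and 39 of the 20738 gene IDs in the table matched. By known role they fall into 12 factors and feedback genes of the integrated stress response, 12 genes of amino acid synthesis and transport, 4 tRNA synthetases, 8 endoplasmic reticulum (ER) chaperones and folding enzymes, and 3 further UPR genes. All 39 passed the filter on low counts in both lines.

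UM-SCC-47 and UPCI-SCC-090 are established cell lines of human papillomavirus-positive head and neck squamous cell carcinoma. Cells of each line received 500 nM JQ1, which blocks the bromodomains of the BET proteins, or 0.1% DMSO as the control, and RNA was taken after 72 h from cells in DMEM with fetal bovine serum. Ribosomal RNA was depleted and stranded total RNA libraries were sequenced, with 3 libraries in each of the 4 groups and 12 in all. Each line stands for 1 tumor, 1 dose and 1 time were used, and no source says whether the 3 libraries of a group came from separate cultures, so p-values measure only the spread between these libraries.

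Total estimated counts ranged from 20349275 to 30788657 per library, and replicates differed by more than sampling noise. All 7 squamous epithelial markers were detected in every group. Their summed levels were 2684 to 3509 CPM in JQ1 libraries and 2280.4 to 2405 CPM in DMSO libraries of UM-SCC-47. In UPCI-SCC-090 the sums were 12091 to 18118 CPM in JQ1 libraries and 5425 to 7146 CPM in DMSO libraries. The 7 did not move together. Their log2 fold changes with JQ1 ran from −3.02 to 2.33 in UM-SCC-47 and from −1.43 to 1.27 in UPCI-SCC-090. Between the DMSO libraries, UPCI-SCC-090 over UM-SCC-47, they ran from −6.53 to 6.84. The 5 fibroblast markers summed to 4.95 to 6.07 CPM (JQ1) and 12.3 to 14.1 CPM (DMSO) in UM-SCC-47, and to 2.69 to 5.47 CPM (JQ1) and 17.3 to 29.2 CPM (DMSO) in UPCI-SCC-090. The 5 leukocyte and 4 endothelial markers stayed at or under 38.0 CPM with JQ1 and 41.3 CPM with DMSO, no marker of these lists was at 0 in all 12 libraries, and the part of these lists in the results was not tested. The share of counts from ribosomal protein genes was 10.5 to 11.1% with JQ1 and 4.25 to 5.73% with DMSO in UPCI-SCC-090, against 6.06 to 8.53% with JQ1 and 5.86 to 6.13% with DMSO in UM-SCC-47, and its part in the results was not tested. Levels are CPM, the counts relative to each library's total, after TMM scaling over the 12 libraries, and a gene was called at an adjusted p under 0.05 by edgeR's quasi-likelihood F test within a line, adjusted over all genes tested. RLE size factors in place of TMM moved the median log2 fold change of all genes by 0.15 in UM-SCC-47 and 0.28 in UPCI-SCC-090. Library size alone moved it by −0.25 and −0.24 in the same order of lines, so all changes are relative to the TMM scale. For fold changes and calls within a line, TMM was set over the libraries of that line alone. CPM and overlaps use the scale over the 12 libraries, so their ratios can differ from the fitted changes.

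The integrated stress response begins when kinases that sense amino acid shortage, ER stress, heme deficiency or double-stranded RNA phosphorylate the translation factor eIF2. General translation then falls while the ATF4 mRNA is translated more, and ATF4, often with C/EBP partners, activates genes that make, import and charge amino acids. The UPR has further arms: IRE1 splices the XBP1 mRNA and ATF6 is cleaved, and both products activate genes of ER chaperones and of ER-associated degradation (ERAD). ATF4 is regulated mainly through translation, and gene-level RNA counts hold neither ATF4 protein, eIF2 phosphorylation nor XBP1 splicing.

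These classes of target are known for different promoter elements, which are shown here because the comparison between them follows. Of the members, 35 had promoters in the RefSeq table (GRCh38.p14, 250 bases before to 50 after each start, 54 windows), while NUPR1, PSPH, SHMT2 and SLC7A11 were not searched. The core of the C/EBP-ATF response element, TGATGNAA on either strand, was in 3.62% of all 35116 promoters and in those of 8 members: ASNS, SLC3A2, SLC7A1, CHAC1, CEBPG, AARS1, GARS1 and HERPUD1. In SLC3A2 and SLC7A1 the match lay after the start. Upstream stretches around 4 of the matches follow, 5′ to 3′ on the gene's strand, with the match in capitals.
ASNS, chr7:97872449-97872496, minus strand: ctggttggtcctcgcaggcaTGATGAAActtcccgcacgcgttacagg
CHAC1, chr15:40953242-40953289, plus strand: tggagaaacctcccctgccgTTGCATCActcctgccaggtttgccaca
AARS1, chr16:70289666-70289713, minus strand: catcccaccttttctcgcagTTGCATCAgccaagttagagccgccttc
HERPUD1, chr16:56931946-56931993, plus strand: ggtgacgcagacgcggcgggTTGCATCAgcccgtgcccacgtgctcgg

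The ER stress response element, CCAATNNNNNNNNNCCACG on either strand, was in 0.0769% of all promoters and in those of 5 members, the chaperone genes HSPA5, HSP90B1, CALR and PDIA6 and the UPR factor gene XBP1. No member held both elements in its windows. Stretches from 4 of these promoters follow in the same build, with the element in capitals. HSP90B1 held 2 copies.
HSPA5, chr9:125241371-125241429, minus strand: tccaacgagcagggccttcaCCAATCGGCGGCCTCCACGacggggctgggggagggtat
PDIA6, chr2:10812833-10812891, minus strand: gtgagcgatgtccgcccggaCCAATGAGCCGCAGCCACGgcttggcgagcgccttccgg
XBP1, chr22:28800583-28800641, minus strand: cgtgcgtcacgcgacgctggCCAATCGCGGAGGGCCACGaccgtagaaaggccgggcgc
HSP90B1, chr12:103930196-103930359, plus strand: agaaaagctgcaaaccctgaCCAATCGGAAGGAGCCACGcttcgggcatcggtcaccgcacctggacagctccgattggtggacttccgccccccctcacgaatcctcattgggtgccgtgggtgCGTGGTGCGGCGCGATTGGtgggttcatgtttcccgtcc

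With JQ1, 11 members rose and 5 fell in UM-SCC-47, and 8 rose and 2 fell in UPCI-SCC-090. The members called higher were 28.2% in UM-SCC-47 and 20.5% in UPCI-SCC-090, where 16.1% and 7.67% of all genes tested were higher in the same order of lines. The members called lower were 12.8% in UM-SCC-47 and 5.13% in UPCI-SCC-090, beside 25.5% and 20.4% of all genes tested. The median log2 fold change of the 39 was 0.25 in UM-SCC-47 and 0.29 in UPCI-SCC-090, and the median of all genes was −0.03 and −0.14. DDIT3, SESN2, ASNS, SLC7A5 and HSPA5 rose in both lines (4.68% of the 12327 genes tested in both did so), CBS and SLC7A1 fell in both (13.1% of all), NUPR1 went in opposite directions, and 21 members were called in neither line. The JQ1 and DMSO libraries did not overlap in 15 members that were higher and 9 that were lower in UM-SCC-47 (22.8% and 32.5% of all genes tested), and in 12 that were higher and 1 that was lower in UPCI-SCC-090 (16.1% and 24.4%).

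**Figure D1:**
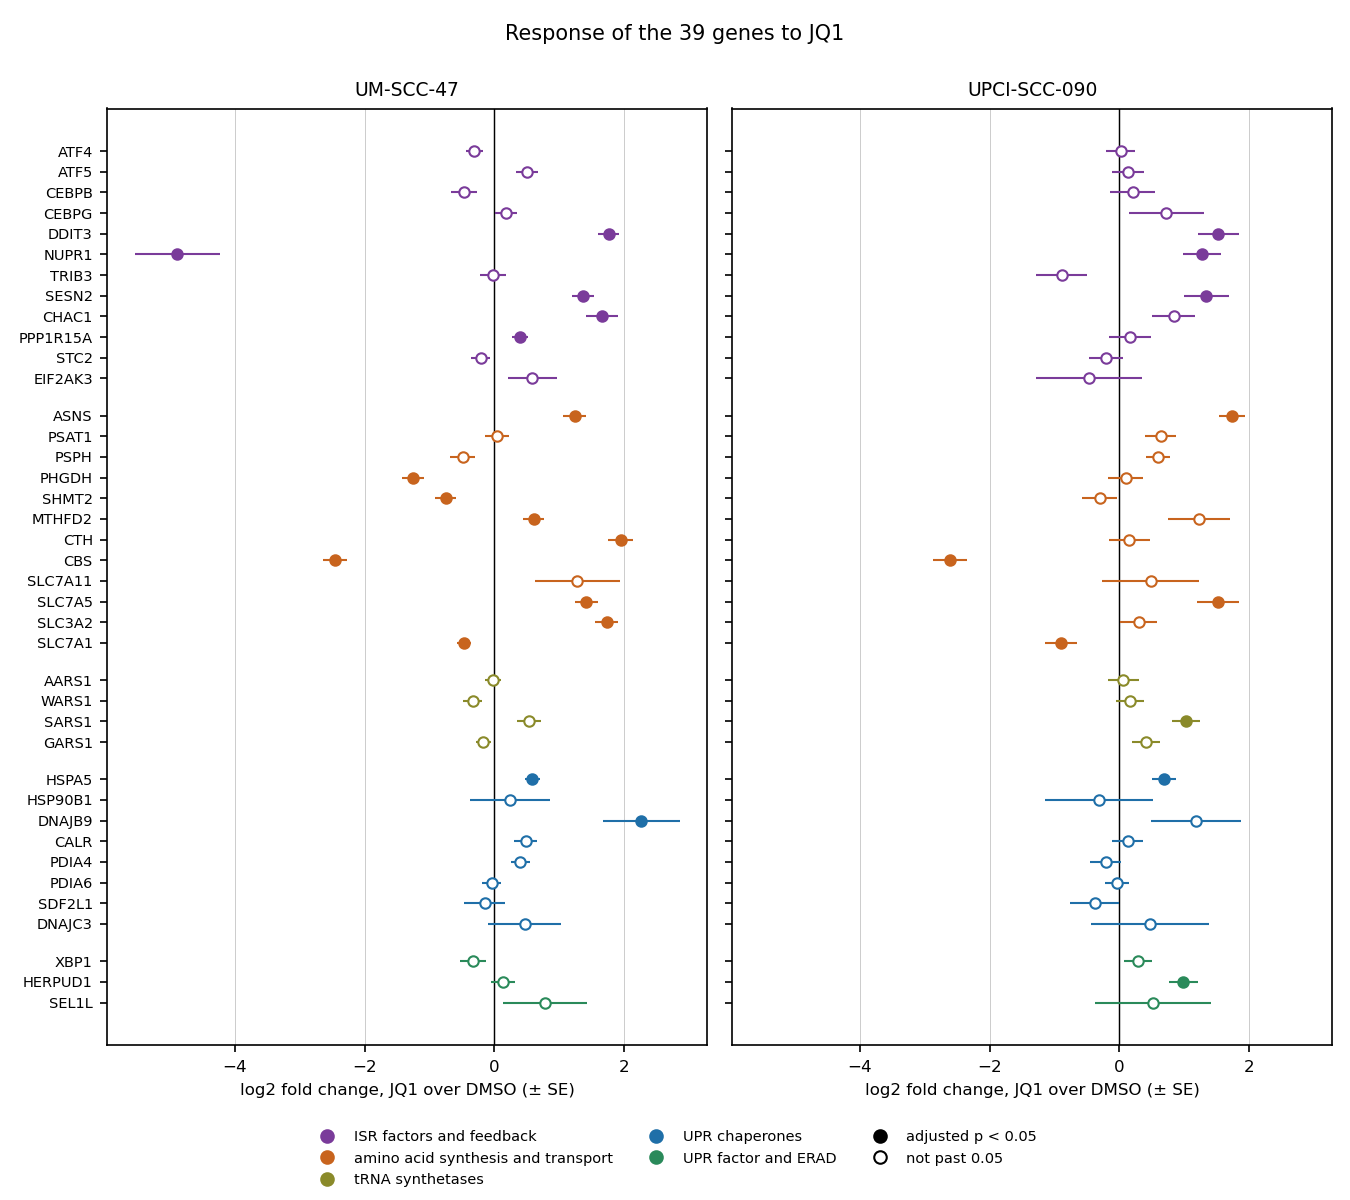
Log2 fold changes of the 39 genes with JQ1 over DMSO in UM-SCC-47 (left) and UPCI-SCC-090 (right), 3 libraries per group. Points are edgeR estimates with bars of 1 SE, filled where the adjusted p was under 0.05, and colors give the known role. In both panels CBS lies far to the left and DDIT3, SESN2, ASNS and SLC7A5 to the right, and NUPR1 lies on opposite sides of 0.

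ATF4 itself, the factor that gives the response its name, was not called in either line. In UM-SCC-47 ATF4 had 271, 311 and 244 CPM with JQ1, against 326, 357 and 327 CPM with DMSO (log2 fold change −0.30 ± 0.13 SE, adjusted p = 0.1). All 3 JQ1 libraries lay below all 3 DMSO libraries there, and the difference passed the threshold with library size alone (adjusted p = 0.0056) and without JQ1 replicate 2 (adjusted p = 0.024). In UPCI-SCC-090 ATF4 had 209, 291 and 162 CPM with JQ1, against 154, 231 and 211 CPM with DMSO, with overlapping groups (log2 fold change 0.02 ± 0.22 SE, adjusted p = 0.95). ATF5, a related factor that is also regulated by translation, had 23.4, 26.1 and 20.9 CPM with JQ1, against 14.96, 18.7 and 15.4 CPM with DMSO in UM-SCC-47. The groups did not overlap, but the difference stayed just outside the threshold (log2 fold change 0.51 ± 0.17 SE, adjusted p = 0.053), and it passed under 6 of 15 alternatives (adjusted p 0.0151 to 0.0356, the fits without JQ1 replicate 3 among them). In UPCI-SCC-090 ATF5 had 109, 162 and 99.5 CPM with JQ1, against 76.4, 128 and 106 CPM with DMSO (log2 fold change 0.14 ± 0.24 SE, adjusted p = 0.73). The ATF4 partners CEBPB and CEBPG were not called in either line, although CEBPB passed as lower in UM-SCC-47 with library size alone (adjusted p = 0.0306), and the PERK gene EIF2AK3, whose kinase couples ER stress to eIF2, was not either, with SEs of 0.38 in UM-SCC-47 and 0.81 in UPCI-SCC-090.

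DDIT3 (ENSG00000175197, GRCh37 chr12:57910371-57915520, minus strand), which encodes CHOP, a factor linked to cell death after prolonged ER stress, had the smallest adjusted p of this class in both lines. In UM-SCC-47 DDIT3 had 43.2, 50.02 and 46.6 CPM with JQ1, against 12.6, 12.5 and 15.7 CPM with DMSO (log2 fold change 1.77 ± 0.16 SE, adjusted p = 0.00051). In UPCI-SCC-090 DDIT3 had 15.6, 13.6 and 12.9 CPM with JQ1, against 5.45, 4.29 and 3.68 CPM with DMSO (log2 fold change 1.53 ± 0.32 SE, adjusted p = 0.014). In both lines every JQ1 library was above every DMSO library, and the JQ1 libraries of UPCI-SCC-090 reached about the level of the DMSO libraries of UM-SCC-47. In UPCI-SCC-090 the call rested on single libraries, with an adjusted p of 0.0576 to 0.0789 with DMSO replicates 2 and 3 and JQ1 replicate 1 each left out in turn.

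SESN2, a sestrin that restrains the growth kinase mTORC1, rose by a similar size in both lines. In UM-SCC-47 SESN2 had 71.3, 60.1 and 57.6 CPM with JQ1, against 22.7, 28.7 and 20.7 CPM with DMSO (log2 fold change 1.37 ± 0.17 SE, adjusted p = 0.0016). In UPCI-SCC-090 SESN2 had 39.8, 70.9 and 30.1 CPM with JQ1, against 11.8, 20.4 and 18.2 CPM with DMSO (log2 fold change 1.35 ± 0.35 SE, adjusted p = 0.031). The groups did not overlap in either line, while the JQ1 libraries of UPCI-SCC-090 were widely spread. The UPCI-SCC-090 call ended on leaving out most of the single libraries, with an adjusted p of 0.0503 to 0.0986 with DMSO replicates 1, 2 and 3 and JQ1 replicates 1 and 2 each left out in turn, and with library size alone (adjusted p = 0.063).

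CHAC1, which degrades glutathione and is among the most ATF4-dependent genes, rose in UM-SCC-47, with 34.5, 40.1 and 22.5 CPM with JQ1, against 9.28, 10.9 and 10.1 CPM with DMSO (log2 fold change 1.67 ± 0.24 SE, adjusted p = 0.0026). In UPCI-SCC-090 CHAC1 had 8.03, 14.4 and 9.51 CPM with JQ1, against 4.09, 6.61 and 5.75 CPM with DMSO. There too the groups did not overlap, but the test was not passed (log2 fold change 0.84 ± 0.33 SE, adjusted p = 0.1), while it was under 3 of 15 alternatives (adjusted p 0.0243 to 0.0357). PPP1R15A, or GADD34, directs the phosphatase that reverses eIF2 phosphorylation and so closes the loop. It had 58.7, 56.4 and 51.1 CPM with JQ1, against 37.9, 44.4 and 42.4 CPM with DMSO in UM-SCC-47, a small rise near the threshold (log2 fold change 0.40 ± 0.13 SE, adjusted p = 0.046). That call ended under 9 of 15 alternatives, with an adjusted p of 0.0532 to 0.202 with DMSO replicates 1, 2 and 3 and JQ1 replicates 1 and 2 each left out in turn. In UPCI-SCC-090 PPP1R15A was not called (log2 fold change 0.17 ± 0.32 SE, adjusted p = 0.76).

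NUPR1, a small stress-induced chromatin protein, moved in opposite directions. In UPCI-SCC-090 NUPR1 had 16.3, 23.1 and 13.5 CPM with JQ1, against 5.29, 7.92 and 6.88 CPM with DMSO (log2 fold change 1.27 ± 0.29 SE, adjusted p = 0.021). In UM-SCC-47 it was near the limit of detection, with 1 count over the 3 JQ1 libraries and 49 over the 3 DMSO libraries. By summed counts over library totals, without TMM scaling, the DMSO level was 46.7 times the JQ1 level there. The 95% interval of 7.99 to 1880 covers counting error only. On the TMM scale the fitted log2 fold change was −4.89 ± 0.66 SE (adjusted p = 0.0019), a size that depends on the prior count. In UPCI-SCC-090 the call ended on leaving out single libraries, with an adjusted p of 0.0548 to 0.0976 with DMSO replicates 1, 2 and 3 and JQ1 replicate 1 each left out in turn, and with library size alone (adjusted p = 0.052). TRIB3, a pseudokinase that inhibits ATF4, and STC2, a secreted glycoprotein induced by ATF4, were called in neither line. TRIB3 had a log2 fold change of −0.01 ± 0.20 SE in UM-SCC-47 and −0.89 ± 0.39 SE in UPCI-SCC-090.

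**Figure D2:**
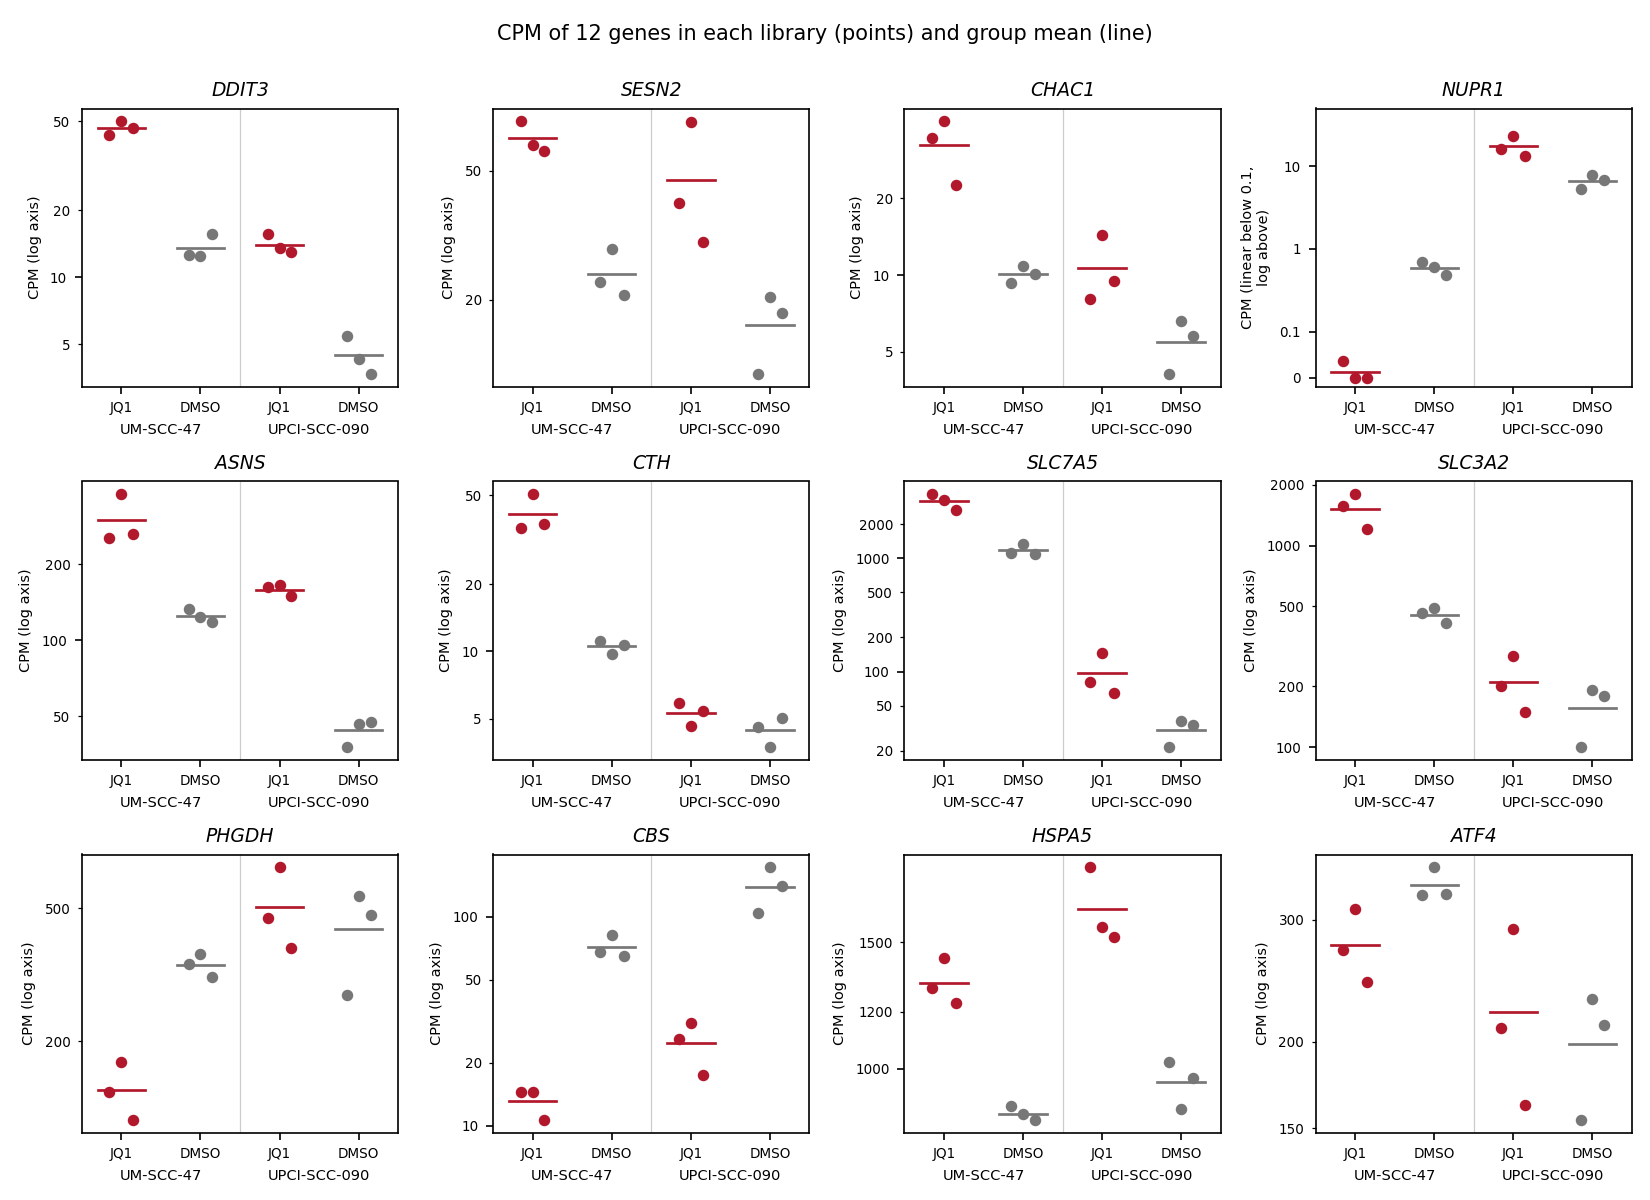
CPM of 12 of the genes in each library (points, 3 per group) with the group mean (line), on log axes except for NUPR1, whose axis is linear below 0.1 CPM to show libraries at 0. JQ1 libraries are red and DMSO libraries gray. DDIT3, SESN2, ASNS, SLC7A5 and HSPA5 are higher with JQ1 than with DMSO in both lines without overlap, CBS is lower without overlap, and CTH and SLC3A2 separate in UM-SCC-47 alone.

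Among the genes of amino acid synthesis and transport, JQ1 moved members in both directions. In UM-SCC-47 5 of the 12 rose (ASNS, MTHFD2, CTH, SLC7A5, SLC3A2) and 4 fell (PHGDH, SHMT2, CBS, SLC7A1), with a median log2 fold change of 0.33. In UPCI-SCC-090 2 rose (ASNS, SLC7A5) and 2 fell (CBS, SLC7A1), with a median of 0.39. ASNS (ENSG00000070669, GRCh37 chr7:97480989-97501854, minus strand), or asparagine synthetase, the textbook target of the amino acid response, had 254, 378 and 262 CPM with JQ1, against 133, 123 and 118 CPM with DMSO in UM-SCC-47 (log2 fold change 1.24 ± 0.18 SE, adjusted p = 0.0027). In UPCI-SCC-090 ASNS had 162, 165 and 149 CPM with JQ1, against 37.8, 46.8 and 47.7 CPM with DMSO, with tightly grouped libraries (log2 fold change 1.74 ± 0.19 SE, adjusted p = 0.0038). ASNS and CBS were the members whose calls held in both lines under all 15 alternatives of each.

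The transsulfuration genes CTH and CBS, which act in sequence to make cysteine from homocysteine and serine, went apart. CBS (ENSG00000160200, GRCh37 chr21:44473301-44497053, minus strand), the first enzyme, fell in both lines. It had 14.5, 14.4 and 10.6 CPM with JQ1, against 67.6, 81.6 and 64.8 CPM with DMSO in UM-SCC-47 (log2 fold change −2.45 ± 0.19 SE, adjusted p = 0.00029). In UPCI-SCC-090 CBS had 25.9, 30.98 and 17.5 CPM with JQ1, against 104, 173 and 140.0 CPM with DMSO (log2 fold change −2.61 ± 0.27 SE, adjusted p = 0.0037). CTH, or cystathionine gamma-lyase, the second enzyme, rose in UM-SCC-47, with 35.7, 50.7 and 37.2 CPM with JQ1, against 11.1, 9.74 and 10.7 CPM with DMSO (log2 fold change 1.96 ± 0.19 SE, adjusted p = 0.00063). In UPCI-SCC-090 CTH was low, with 5.85, 4.65 and 5.41 CPM with JQ1, against 4.59, 3.72 and 5.01 CPM with DMSO, and was not called (log2 fold change 0.16 ± 0.31 SE, adjusted p = 0.76).

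The enzymes of serine and one-carbon metabolism did not move as one. PHGDH, which commits glycolytic carbon to serine, fell in UM-SCC-47, with 141, 173 and 116 CPM with JQ1, against 339, 363 and 310.3 CPM with DMSO (log2 fold change −1.25 ± 0.17 SE, adjusted p = 0.002). In UPCI-SCC-090 PHGDH had 468, 662 and 379 CPM with JQ1, against 275, 543 and 477 CPM with DMSO, with overlapping groups (log2 fold change 0.10 ± 0.27 SE, adjusted p = 0.83). The later enzymes PSAT1 and PSPH were called in neither line, although PSAT1 passed as higher in UPCI-SCC-090 under 3 of 15 alternatives (adjusted p 0.0133 to 0.033, the fits without JQ1 replicate 2 among them). PSPH had 30.95, 42.7 and 27.2 CPM with JQ1, against 46.6, 47.6 and 45.3 CPM with DMSO in UM-SCC-47 (log2 fold change −0.48 ± 0.19 SE, adjusted p = 0.088), lower without overlap, and passed with library size alone and without JQ1 replicate 2 (adjusted p 0.00797 to 0.0107). In UPCI-SCC-090 PSPH had 175, 201 and 137 CPM with JQ1, against 85.7, 110.1 and 116 CPM with DMSO (log2 fold change 0.60 ± 0.19 SE, adjusted p = 0.058), higher without overlap, and passed in 1 fit over the 12 libraries (adjusted p = 0.0272).

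SHMT2, the mitochondrial enzyme that passes a carbon from serine to folate, fell in UM-SCC-47, with 170.3, 208 and 139 CPM with JQ1, against 280.3, 309 and 272 CPM with DMSO (log2 fold change −0.75 ± 0.17 SE, adjusted p = 0.013). This call ended with RLE size factors (adjusted p = 0.055), with DESeq2 (adjusted p = 0.076) and on leaving out a library, with an adjusted p of 0.0513 to 0.0536 with DMSO replicate 2 and JQ1 replicates 1 and 3 each left out in turn. In UPCI-SCC-090 SHMT2 had 205, 269 and 149 CPM with JQ1, against 151, 288 and 267 CPM with DMSO, with overlapping groups (log2 fold change −0.30 ± 0.27 SE, adjusted p = 0.48). MTHFD2, which acts on the same mitochondrial folates, rose in UM-SCC-47, with 214, 284 and 231 CPM with JQ1, against 167, 137 and 169.8 CPM with DMSO (log2 fold change 0.61 ± 0.16 SE, adjusted p = 0.022). Its call ended with the GC correction (adjusted p = 0.15) and on leaving out any DMSO library, with an adjusted p of 0.0565 to 0.0761 with DMSO replicates 1, 2 and 3 each left out in turn. In UPCI-SCC-090 MTHFD2 had 191, 77.5 and 197 CPM with JQ1, against 80.7, 45.7 and 61.4 CPM with DMSO. The JQ1 libraries overlapped the DMSO libraries there, and the difference was not called (log2 fold change 1.24 ± 0.48 SE, adjusted p = 0.1), but it passed under 7 of 15 alternatives (adjusted p 0.0098 to 0.0385, the fits without JQ1 replicate 2 among them).

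SLC7A5 and SLC3A2 encode the light and heavy chains of LAT1, the exchanger that brings leucine and other large neutral amino acids into the cell. SLC7A5 had 3685, 3244 and 2646 CPM with JQ1, against 1108, 1343 and 1088 CPM with DMSO in UM-SCC-47 (log2 fold change 1.42 ± 0.17 SE, adjusted p = 0.0014). In UPCI-SCC-090 SLC7A5 had 81.3, 146 and 64.7 CPM with JQ1, against 21.5, 36.4 and 34.0 CPM with DMSO (log2 fold change 1.53 ± 0.32 SE, adjusted p = 0.015). The rise was thus of similar size at levels far apart, and in UPCI-SCC-090 its adjusted p became 0.0556 to 0.0575 with DMSO replicate 3 and JQ1 replicate 1 each left out in turn. SLC3A2 rose in UM-SCC-47, with 1572, 1800.3 and 1209 CPM with JQ1, against 462, 489 and 412 CPM with DMSO (log2 fold change 1.73 ± 0.18 SE, adjusted p = 0.00075). In UPCI-SCC-090 SLC3A2 had 202, 283 and 149 CPM with JQ1, against 99.9, 192 and 179.5 CPM with DMSO, with overlapping groups (log2 fold change 0.30 ± 0.28 SE, adjusted p = 0.5). There SLC3A2 passed as higher with the GC correction and with the GC correction and the block (adjusted p 0.0181 to 0.045).

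SLC7A1, a carrier of arginine and lysine, fell slightly in both lines. In UM-SCC-47 SLC7A1 had 159, 146 and 139 CPM with JQ1, against 195, 219 and 195 CPM with DMSO (log2 fold change −0.47 ± 0.11 SE, adjusted p = 0.016). In UPCI-SCC-090 SLC7A1 had 78.0, 119 and 60.4 CPM with JQ1, against 115, 169 and 152 CPM with DMSO (log2 fold change −0.89 ± 0.25 SE, adjusted p = 0.037), with overlapping groups. Both calls depended on the scaling, with an adjusted p of 0.0986 in UM-SCC-47 and 0.256 in UPCI-SCC-090 with RLE size factors. They also depended on single libraries, with an adjusted p of 0.0571 to 0.11 with DMSO replicates 1, 2 and 3 and JQ1 replicate 3 each left out in turn in UM-SCC-47 and of 0.127 to 0.326 with DMSO replicates 2 and 3 and JQ1 replicates 1 and 3 each left out in turn in UPCI-SCC-090. SLC7A11, the cystine importer xCT, reached at most 24.9 CPM (JQ1) and 6.67 CPM (DMSO) in UM-SCC-47. In UPCI-SCC-090 it was sparse, at 1.53 CPM (JQ1) and 0.711 CPM (DMSO) at most. It was not called in UM-SCC-47 (log2 fold change 1.28, adjusted p = 0.17) or in UPCI-SCC-090 (0.49, adjusted p = 0.69), although it passed in UM-SCC-47 with DESeq2 (adjusted p = 0.045).

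Of the 4 tRNA synthetases, which load amino acids onto tRNAs, SARS1 for serine rose in UPCI-SCC-090, with 466, 636 and 400.2 CPM with JQ1, against 164, 264 and 248 CPM with DMSO (log2 fold change 1.04 ± 0.22 SE, adjusted p = 0.015). In UM-SCC-47 SARS1 had 334, 455 and 291 CPM with JQ1, against 251, 254 and 229.6 CPM with DMSO. The groups did not overlap there either, and the difference was just outside the threshold (log2 fold change 0.54 ± 0.18 SE, adjusted p = 0.054). The UPCI-SCC-090 call ended on leaving out a library, with an adjusted p of 0.0531 to 0.0658 with DMSO replicate 3 and JQ1 replicate 1 each left out in turn, and in UM-SCC-47 SARS1 passed under 8 of 15 alternatives (adjusted p 0.0112 to 0.045, the fits without JQ1 replicates 2 and 3 among them). AARS1, WARS1 and GARS1 were called in neither line, with log2 fold changes of −0.33 to −0.02 in UM-SCC-47 and 0.07 to 0.41 in UPCI-SCC-090. In UM-SCC-47 WARS1 passed as lower with library size alone and without JQ1 replicate 2 (adjusted p 0.00628 to 0.0152) and GARS1 as lower with library size alone (adjusted p = 0.0104), and in UPCI-SCC-090 GARS1 passed as higher in 1 fit over the 12 libraries (adjusted p = 0.023).

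Of the UPR chaperones, HSPA5 (ENSG00000044574, GRCh37 chr9:127997132-128003661, minus strand) was called in both lines. It encodes BiP, the HSP70 of the ER lumen and the usual gauge of the UPR. In UM-SCC-47 HSPA5 had 1295, 1423 and 1234 CPM with JQ1, against 886, 865 and 848 CPM with DMSO (log2 fold change 0.59 ± 0.11 SE, adjusted p = 0.0073). In UPCI-SCC-090 HSPA5 had 1906, 1573 and 1523 CPM with JQ1, against 1021, 879.8 and 971 CPM with DMSO (log2 fold change 0.69 ± 0.19 SE, adjusted p = 0.037). The groups were apart in both lines and the fitted fold change was 1.51 in UM-SCC-47 and 1.62 in UPCI-SCC-090. The UM-SCC-47 call held under all 15 alternatives. The UPCI-SCC-090 call ended with library size alone (adjusted p = 0.14), with DESeq2 (adjusted p = 0.051) and on leaving out a library, with an adjusted p of 0.0569 to 0.142 with DMSO replicates 2 and 3 and JQ1 replicates 1 and 3 each left out in turn.

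DNAJB9, or ERdj4, a co-chaperone of BiP and a target of XBP1, had 11.4, 5.06 and 27.1 CPM with JQ1, against 2.71, 3.38 and 2.84 CPM with DMSO in UM-SCC-47. All JQ1 libraries lay above the DMSO libraries but were spread over 5.06 to 27.1 CPM (log2 fold change 2.27 ± 0.59 SE, adjusted p = 0.023), and the adjusted p became 0.0702 to 0.0846 with DMSO replicates 1, 2 and 3 each left out in turn. In UPCI-SCC-090 DNAJB9 had 16.9, 10.8 and 36.8 CPM with JQ1, against 11.9, 3.72 and 11.7 CPM with DMSO, with overlapping groups (log2 fold change 1.19 ± 0.69 SE, adjusted p = 0.26). The other 6 chaperones, HSP90B1 (GRP94), CALR (calreticulin), the disulfide isomerases PDIA4 and PDIA6, SDF2L1 and DNAJC3, were called in neither line. Their log2 fold changes ranged from −0.14 to 0.49 in UM-SCC-47 and from −0.38 to 0.48 in UPCI-SCC-090. CALR and PDIA4 came nearest in UM-SCC-47, with JQ1 above DMSO in all libraries (adjusted p = 0.063 and 0.068). There CALR passed as higher under 7 of 15 alternatives (adjusted p 0.01 to 0.049, the fits without JQ1 replicates 2 and 3 among them), and PDIA4 under 6 of 15 alternatives (adjusted p 0.0131 to 0.04989, the fits without JQ1 replicate 3 among them). HSP90B1 passed as lower in UPCI-SCC-090 without the libraries of the steepest GC trends (adjusted p = 0.0361), with a log2 fold change of −1.58.

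XBP1, the factor made by the IRE1 arm, was called in neither line. It had 83.9, 117 and 70.6 CPM with JQ1, against 115, 111 and 111 CPM with DMSO in UM-SCC-47 (log2 fold change −0.33 ± 0.20 SE, adjusted p = 0.23), and passed as lower there with library size alone and without JQ1 replicate 2 (adjusted p 0.0132 to 0.0266). In UPCI-SCC-090 XBP1 had 83.4, 95.2 and 69.1 CPM with JQ1, against 49.0, 68.0 and 70.5 CPM with DMSO (log2 fold change 0.29 ± 0.21 SE, adjusted p = 0.37), and the groups overlapped in both lines. HERPUD1, an ERAD scaffold of the ER membrane that ATF4 and the UPR both activate, rose in UPCI-SCC-090, with 81.2, 98.9 and 70.7 CPM with JQ1, against 30.3, 45.4 and 41.3 CPM with DMSO (log2 fold change 0.99 ± 0.22 SE, adjusted p = 0.02). In UM-SCC-47 HERPUD1 had 40.9, 57.9 and 37.7 CPM with JQ1, against 39.7, 42.9 and 40.1 CPM with DMSO, with overlapping groups (log2 fold change 0.14 ± 0.19 SE, adjusted p = 0.59). The UPCI-SCC-090 call ended with library size alone (adjusted p = 0.058) and on leaving out a library, with an adjusted p of 0.0565 to 0.107 with DMSO replicates 2 and 3 and JQ1 replicate 1 each left out in turn. SEL1L, the partner of the ERAD ubiquitin ligase HRD1, was not called, with SEs of 0.65 in UM-SCC-47 and 0.89 in UPCI-SCC-090.

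Set side by side, the genes of amino acid synthesis and transport spread further with JQ1 than the chaperones. In UM-SCC-47 the 12 ranged from a log2 fold change of −2.45 (CBS) to 1.96 (CTH), with 9 called, and the 8 chaperones from −0.14 (SDF2L1) to 2.27 (DNAJB9), with 2 called. In UPCI-SCC-090 the 12 ranged from −2.61 (CBS) to 1.74 (ASNS), with 4 called, and the 8 chaperones from −0.38 (SDF2L1) to 1.19 (DNAJB9), with 1 called. Of all genes tested 16.1% were called higher and 25.5% lower in UM-SCC-47, and 7.67% and 20.4% in UPCI-SCC-090. The lists differ in size, and the SEs given below limit the calls of some members of both in UPCI-SCC-090. The amino acid genes called lower were 4 in UM-SCC-47 and 2 in UPCI-SCC-090 by edgeR, and 2 and 1 by DESeq2. Those called higher were 5 in UM-SCC-47 and 2 in UPCI-SCC-090 by edgeR, and 6 and 3 by DESeq2. No chaperone was called lower in either line by edgeR or DESeq2, and 0 were lower at an unadjusted p under 0.05, but HSP90B1 was called lower in UPCI-SCC-090 in the fit without the libraries of the steepest GC trends. The chaperones called higher were 2 in UM-SCC-47 and 1 in UPCI-SCC-090 by edgeR, and 3 and 0 by DESeq2.

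The median log2 fold change in UM-SCC-47 was 0.33 for the amino acid genes and 0.44 for the chaperones, and in UPCI-SCC-090 it was 0.39 and 0.05. Across the alternatives the median of the amino acid genes ran from 0.07 (library size alone) to 0.50 (DESeq2) in UM-SCC-47, with 0.17 without JQ1 replicate 2, and from 0.16 (library size alone) to 0.68 (DESeq2) in UPCI-SCC-090. That of the chaperones ran from 0.19 (library size alone) to 0.59 (DESeq2) in UM-SCC-47. In UPCI-SCC-090 it ran from −0.16 (library size alone) to 0.36 (DESeq2), with −0.01 with the replicate number as a block, 0.02 without DMSO replicate 2, 0.10 without DMSO replicate 3, 0.11 without JQ1 replicate 3 and 0.15 without DMSO replicate 1, JQ1 replicate 1 or JQ1 replicate 2. The median of all genes moved with the scaling too. These are descriptions, and the difference between the lists was not tested.

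Taken by library on a log2(CPM + 1) scale, the chaperone median relative to the line's DMSO mean was 0.26 to 0.45 with JQ1 and −0.04 to 0.04 with DMSO in UM-SCC-47, and 0.24 to 0.31 with JQ1 and −0.07 to 0.14 with DMSO in UPCI-SCC-090. That of the amino acid genes was 0.12 to 0.31 with JQ1 and −0.07 to 0.07 with DMSO in UM-SCC-47, and 0.32 to 0.42 with JQ1 and −0.29 to 0.16 with DMSO in UPCI-SCC-090. On this scale the JQ1 libraries lay above the DMSO libraries for both lists in both lines, by less than 1 log2 unit. The medians by library are another measure than the medians of the fitted changes, and they use the scaling over all 12 libraries. The TMM factors by which levels are divided were 0.87 to 0.97 with JQ1 and 1.11 to 1.13 with DMSO in UM-SCC-47. In UPCI-SCC-090 they were 0.82 to 0.91 and 1.03 to 1.21, so the scaling itself raised JQ1 levels relative to DMSO levels. Whether the lists separate without this scaling was not tested, and no value for all genes was taken on this measure. In 1 fit over the 12 libraries the medians of the fitted changes were 0.34 for the amino acid genes and 0.45 for the chaperones in UM-SCC-47. In UPCI-SCC-090 that fit gave 0.47 and 0.17.

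**Figure D3:**
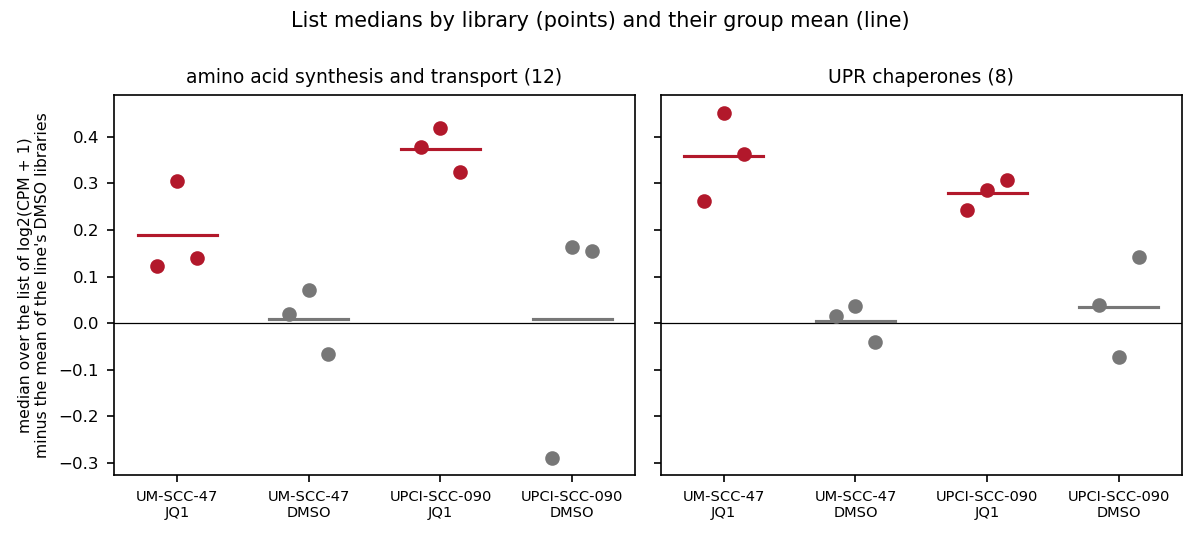
Median over the 12 genes of amino acid synthesis and transport (left) and the 8 UPR chaperones (right) of log2(CPM + 1) in each library, relative to the mean of the DMSO libraries of the same line. Points are libraries, lines are means of the 3 points, JQ1 is red and DMSO gray. On the TMM scale set over all libraries, all JQ1 points lie above the DMSO points of their line in both panels.

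Read against the promoter elements, the members with TGATGNAA upstream or after the start were not of one kind: ASNS rose in both lines, CHAC1 and SLC3A2 in UM-SCC-47, HERPUD1 in UPCI-SCC-090, SLC7A1 fell in both, and AARS1, GARS1 and CEBPG were not called. Of the 5 members with the ER stress response element, HSPA5 rose in both lines and HSP90B1, CALR, PDIA6 and XBP1 were not called. A match describes the letters in these windows and shows no binding.

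The precision differed with base composition. Among the 13 members of lowest GC content (35.4 to 46.1% of the canonical transcript), the SE of the log2 fold change had a median of 0.19 in UM-SCC-47 and 0.58 in UPCI-SCC-090, against 0.15 and 0.22 in the 13 of middle GC content and 0.17 and 0.32 in the 13 of highest GC content. HSP90B1, whose libraries ranged over 140.2, 60.3 and 403 CPM with JQ1, against 402, 102 and 232 CPM with DMSO in UPCI-SCC-090, shows the spread. A slope on GC content was fitted to each library's log2 CPM relative to the gene's mean over the libraries of the line. It was steepest in UPCI-SCC-090 JQ1 replicate 3 (−0.78 log2 units per 10 percentage points) and opposite in UPCI-SCC-090 DMSO replicate 2 (0.70). UM-SCC-47 JQ1 replicate 3 followed (−0.53). In UPCI-SCC-090 the SEs of SLC7A11, DNAJB9, DNAJC3, SEL1L, EIF2AK3 and HSP90B1 ran from 0.69 to 0.91, against 0.19 for ASNS.

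The response to JQ1 differed between the lines in 3 of the 39 members by the interaction test, where 6.56% of all 14396 genes did. The difference is the log2 fold change in UPCI-SCC-090 minus that in UM-SCC-47. The response of CTH was lower in UPCI-SCC-090, with a difference of −1.71 ± 0.35 SE (adjusted p = 0.013). This call ended without DMSO replicate 2 or 3 of UM-SCC-47 (adjusted p = 0.0509 and 0.0506). PSPH differed by 1.18 ± 0.32 SE (adjusted p = 0.048), a call at the threshold that ended under 15 of 20 alternatives. Its adjusted p was 0.0507 to 0.14 with UM-SCC-47 DMSO replicates 1, 2 and 3, UM-SCC-47 JQ1 replicates 1 and 3, UPCI-SCC-090 DMSO replicates 1, 2 and 3 and UPCI-SCC-090 JQ1 replicates 1 and 2 each left out in turn. NUPR1 differed by 6.30 ± 0.73 SE (adjusted p = 0.00061), with the UM-SCC-47 side resting on few counts, and held under all 20. PHGDH (1.46 ± 0.40 SE, adjusted p = 0.052) and SLC3A2 (−1.32 ± 0.41 SE, adjusted p = 0.084) were not called. PHGDH passed under 6 of 20 alternatives (adjusted p 0.000397 to 0.0479, the fits without UPCI-SCC-090 JQ1 replicate 3 among them). SLC3A2 passed under 6 of 20 alternatives (adjusted p 0.00299 to 0.0299, the fits without UM-SCC-47 JQ1 replicate 3, UPCI-SCC-090 DMSO replicate 1 and UPCI-SCC-090 JQ1 replicate 2 among them). GARS1 passed without UPCI-SCC-090 JQ1 replicate 2 (adjusted p = 0.0356). For the other members the SE of the difference ranged from 0.21 (GARS1) to 1.11 (SEL1L), so their responses were not shown to be alike.

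Without JQ1 the lines already stood apart in most of these genes. In DMSO libraries 16 members were lower and 6 higher in UPCI-SCC-090 relative to UM-SCC-47, or 41.0% and 15.4% of members, beside 19.9% lower and 23.3% higher of all genes tested. The stress response factors (7 lower, 2 higher of 12) and the amino acid genes (6 lower, 2 higher of 12) had medians of −0.82 and −0.86, while the chaperones (0 lower, 2 higher of 8) had a median of 0.46 and all genes one of 0.15. The median of all genes became 0.03 with RLE size factors and turned to −0.14 without UPCI-SCC-090 DMSO replicate 1, −0.03 without UPCI-SCC-090 DMSO replicate 3 and −0.04 without UM-SCC-47 JQ1 replicate 3. That of the chaperones became 0.38, 0.19 and 0.26 in the same order of left-out libraries and that of the amino acid genes −1.03, −1.10 and −1.06.

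The largest gaps were in SLC7A5 and STC2. SLC7A5 had 21.5, 36.4 and 34.0 CPM in UPCI-SCC-090 and 1108, 1343 and 1088 CPM in UM-SCC-47 (log2 fold change −5.27 ± 0.36 SE, adjusted p = 5.3e-07). STC2 had 2.86, 3.501 and 2.71 CPM in UPCI-SCC-090 and 111, 116 and 118 CPM in UM-SCC-47 (log2 fold change −5.25 ± 0.25 SE, adjusted p = 9.7e-08). Both genes were abundant in UM-SCC-47 and low in UPCI-SCC-090 in every library. SLC7A11 (log2 fold change −3.15), WARS1 (−2.39), CEBPB (−2.14), DDIT3 (−1.60), SLC3A2 (−1.53), ASNS (−1.50), TRIB3 (−1.35), MTHFD2 (−1.33), GARS1 (−1.32) and CTH (−1.24) were lower in UPCI-SCC-090 as well. So were PPP1R15A (−0.95), CHAC1 (−0.88), XBP1 (−0.85) and ATF4 (−0.76), although the adjusted p of ATF4 became 0.0633 with UM-SCC-47 DMSO replicate 2 left out, that of PPP1R15A 0.0607 to 0.0657 with UM-SCC-47 DMSO replicates 2 and 3 each left out in turn and that of CHAC1 0.0629 to 0.112 with UM-SCC-47 DMSO replicates 1, 2 and 3 and UM-SCC-47 JQ1 replicate 1 each left out in turn. The MTHFD2 call ended with the replicate block (adjusted p = 0.0621).

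In the other direction, NUPR1 had 5.29, 7.92 and 6.88 CPM in UPCI-SCC-090 and 0.702, 0.602 and 0.480 CPM in UM-SCC-47 (log2 fold change 3.48 ± 0.39 SE, adjusted p = 2.3e-05). ATF5 had 76.4, 128 and 106 CPM in UPCI-SCC-090 and 14.96, 18.7 and 15.4 CPM in UM-SCC-47 (log2 fold change 2.66 ± 0.27 SE, adjusted p = 8.6e-06). PDIA4, a disulfide isomerase, had 621, 972 and 912 CPM in UPCI-SCC-090 and 294, 338 and 283 CPM in UM-SCC-47 (log2 fold change 1.45 ± 0.26 SE, adjusted p = 0.00079). PSPH, CBS and PDIA6 were higher too, by log2 fold changes of 1.16, 0.96 and 0.57, and the PDIA6 call ended under 11 of 20 alternatives, with an adjusted p of 0.0562 to 0.221 with UM-SCC-47 DMSO replicates 1, 2 and 3, UM-SCC-47 JQ1 replicate 3 and UPCI-SCC-090 DMSO replicates 1 and 3 each left out in turn. That of CBS was 0.05004 to 0.0577 with UM-SCC-47 DMSO replicates 1 and 3 and UPCI-SCC-090 DMSO replicates 2 and 3 each left out in turn and 0.111 with the replicate block. HSPA5, although higher with JQ1 in both lines, did not pass between them, with 1021, 879.8 and 971 CPM in UPCI-SCC-090 and 886, 865 and 848 CPM in UM-SCC-47 (log2 fold change 0.14 ± 0.16 SE, adjusted p = 0.5). Members not called between the lines passed under some alternatives. DNAJB9 did as higher under 6 of 20 alternatives (adjusted p 0.00123 to 0.0459, the fits without UM-SCC-47 JQ1 replicate 2, UPCI-SCC-090 DMSO replicate 2 and UPCI-SCC-090 JQ1 replicate 3 among them), and CALR as higher under 4 of 20 alternatives (adjusted p 0.0159 to 0.04991, the fits without UPCI-SCC-090 DMSO replicate 1 and UPCI-SCC-090 JQ1 replicate 2 among them). SLC7A1 did as lower under 5 of 20 alternatives (adjusted p 0.0138 to 0.0451, the fits without UM-SCC-47 JQ1 replicate 3, UPCI-SCC-090 DMSO replicate 3 and UPCI-SCC-090 JQ1 replicate 2 among them), AARS1 as lower under 5 of 20 alternatives (adjusted p 0.0144 to 0.048, the fits without UM-SCC-47 JQ1 replicate 3 and UPCI-SCC-090 DMSO replicate 3 among them), SESN2 as lower with the GC correction (adjusted p = 0.018) and EIF2AK3 as higher with the replicate block and with the GC correction and the block (adjusted p 0.0273 to 0.04979). The lines come from different tumors, and the features in which they differ cannot be told apart here.

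**Figure D4:**
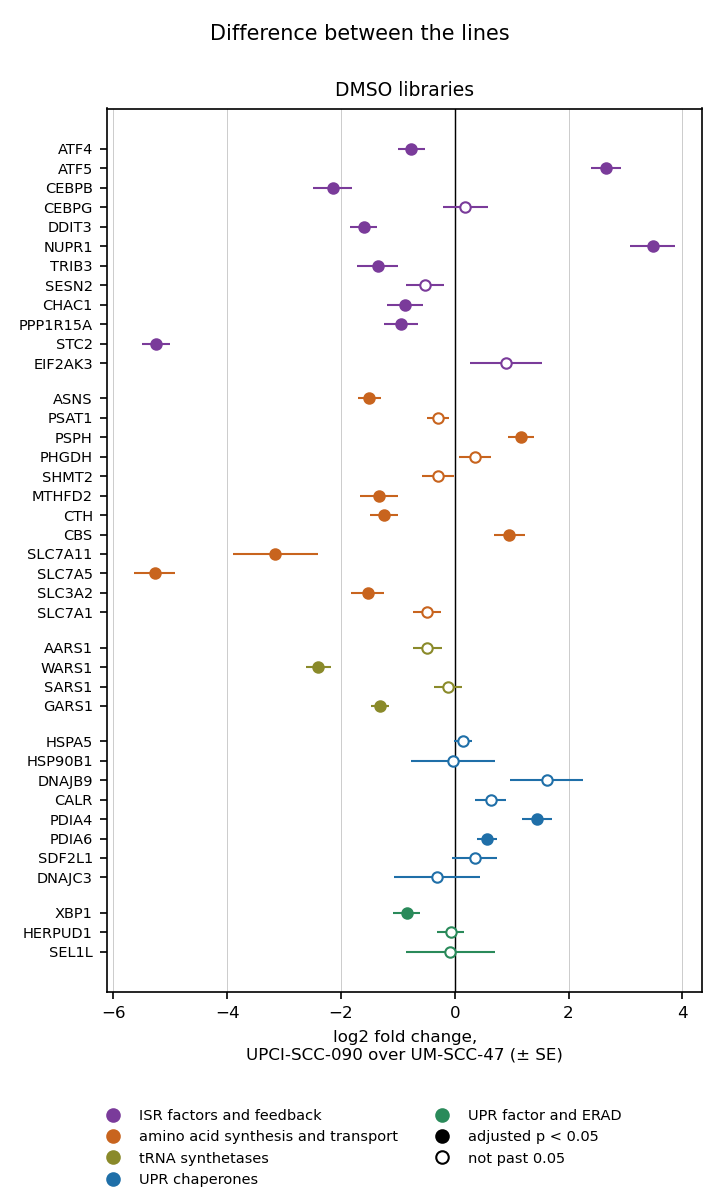
Log2 fold changes of the 39 genes between the DMSO libraries, UPCI-SCC-090 over UM-SCC-47, 3 libraries per line. Points are edgeR estimates with bars of 1 SE, filled where the adjusted p was under 0.05, and colors give the known role. SLC7A5 and STC2 lie below −5, NUPR1 and ATF5 above 2, and the chaperones near or to the right of 0.

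Other genes of these pathways, 79 in 5 lists, held calls in both directions. In UM-SCC-47 12 rose and 11 fell of 78 tested, where 16.1% and 25.5% of all genes tested did. In UPCI-SCC-090 4 rose and 6 fell of 77, where 7.67% and 20.4% of all genes tested did. None of the shares of these genes was above that of all genes. The counts by list that follow are to be read against the same shares. Among 19 other amino acid response genes 1 rose and 4 fell in UM-SCC-47 (18 tested) and 1 rose and 4 fell in UPCI-SCC-090 (17 tested). PYCR1, the last enzyme of proline synthesis, fell in both lines, with 12.6, 13.4 and 8.65 CPM with JQ1, against 50.1, 50.2 and 42.4 CPM with DMSO in UM-SCC-47 (log2 fold change −2.06 ± 0.21 SE, adjusted p = 0.0007). In UPCI-SCC-090 PYCR1 had 26.9, 39.7 and 23.3 CPM with JQ1, against 49.2, 102 and 92.1 CPM with DMSO (log2 fold change −1.55 ± 0.32 SE, adjusted p = 0.014). SLC6A9, the glycine transporter GLYT1, fell as well, by log2 fold changes of −1.25 in UM-SCC-47 and −1.92 in UPCI-SCC-090, and ALDH1L2 fell in UM-SCC-47 (−1.87) and the alanine transaminase GPT2 in UPCI-SCC-090 (−1.14). The stress factor ATF3 rose in UM-SCC-47, with 121, 162 and 108 CPM with JQ1, against 23.0, 24.3 and 20.7 CPM with DMSO (log2 fold change 2.51 ± 0.19 SE, adjusted p = 0.00029), and had 42.8, 54.8 and 31.3 CPM with JQ1, against 25.3, 37.0 and 34.9 CPM with DMSO in UPCI-SCC-090 (log2 fold change 0.28 ± 0.26 SE, adjusted p = 0.48). JDP2, a repressor of the same family, rose in UPCI-SCC-090 (1.17). The adjusted p in UPCI-SCC-090 of PYCR1 became 0.055 to 0.126 with DMSO replicates 2 and 3 and JQ1 replicates 1 and 3 each left out in turn, that of GPT2 became 0.0974 to 0.224 with DMSO replicates 2 and 3 and JQ1 replicates 1 and 3 each left out in turn, that of JDP2 became 0.0656 to 0.14 with DMSO replicates 1, 2 and 3 and JQ1 replicates 1 and 2 each left out in turn, and that of SLC6A9 became 0.0663 with JQ1 replicate 1 left out. In UM-SCC-47 that of ALDH1L2 became 0.0824 to 0.0941 with DMSO replicates 1 and 3 and JQ1 replicate 1 each left out in turn. Scaling and method mattered too. In UPCI-SCC-090 the adjusted p of PYCR1 was 0.0576 with RLE size factors and 0.0658 with the GC correction. That of GPT2 was 0.146 with RLE size factors and 0.194 with DESeq2, and that of JDP2 0.0965 with library size alone. In UM-SCC-47 that of ALDH1L2 was 0.0785 in 1 fit over the 12 libraries.

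Of the 16 other cytosolic tRNA synthetases edgeR called none higher in UM-SCC-47 (1 at an unadjusted p under 0.05 and 1 by DESeq2) or in UPCI-SCC-090 (0 at an unadjusted p under 0.05 and 1 by DESeq2). In UM-SCC-47 4 fell, among them VARS1 for valine (log2 fold change −0.94), IARS1 for isoleucine (−0.70) and YARS1 for tyrosine (−0.64), and in UPCI-SCC-090 VARS1 fell, with 36.9, 57.7 and 20.8 CPM with JQ1, against 103, 194 and 156 CPM with DMSO (log2 fold change −2.12 ± 0.37 SE, adjusted p = 0.0079). The adjusted p in UPCI-SCC-090 of VARS1 became 0.0663 with JQ1 replicate 1 left out. In UM-SCC-47 that of IARS1 became 0.0545 to 0.104 with DMSO replicates 1 and 3 and JQ1 replicates 1 and 2 each left out in turn, and that of YARS1 became 0.051 to 0.0756 with DMSO replicates 1 and 2 and JQ1 replicates 1 and 3 each left out in turn, while VARS1 missed the threshold in 1 fit over the 12 libraries (adjusted p = 0.0692) and with the GC correction and the block (adjusted p = 0.0605). The IARS1 call there ended in 1 fit over the 12 libraries (adjusted p = 0.354) and with DESeq2 (adjusted p = 0.0658). That of YARS1 ended with RLE size factors (adjusted p = 0.0704), with DESeq2 (adjusted p = 0.123) and in 1 fit over the 12 libraries (adjusted p = 0.0716). Of the 12 genes of eIF2 kinases, eIF2 and its exchange factor eIF2B, EIF2B3 (0.69) and EIF2B4 (0.67) rose in UM-SCC-47, but the adjusted p of EIF2B3 became 0.079 to 0.104 with DMSO replicates 1, 2 and 3 each left out in turn, and that of EIF2B4 became 0.0519 to 0.0938 with DMSO replicates 1, 2 and 3 and JQ1 replicate 1 each left out in turn. With library size alone it was 0.0789 for EIF2B3 and 0.0663 for EIF2B4. In UPCI-SCC-090 edgeR called none of the 12 higher (1 at an unadjusted p under 0.05 and 1 by DESeq2) or lower (0 at an unadjusted p under 0.05 and 0 by DESeq2).

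Of 15 other ER chaperones and folding enzymes 3 rose in UM-SCC-47 and 1 in UPCI-SCC-090. With edgeR none fell in UM-SCC-47 (0 at an unadjusted p under 0.05 and 0 by DESeq2) or in UPCI-SCC-090 (0 at an unadjusted p under 0.05 and 0 by DESeq2). SIL1, an exchange factor of BiP, and HYOU1, a large ER chaperone, rose in UM-SCC-47 by log2 fold changes of 0.91 and 0.64, and MANF, a secreted ER protein, in UPCI-SCC-090 by 1.04. The adjusted p of SIL1 became 0.0511 with DMSO replicates 1 and 3 each left out in turn, that of HYOU1 became 0.0501 with DMSO replicate 1 left out, and that of MANF became 0.0851 to 0.146 with DMSO replicates 2 and 3 and JQ1 replicate 1 each left out in turn. With library size alone it was 0.0583 for HYOU1 and 0.0675 for MANF, and in 1 fit over the 12 libraries 0.106 for HYOU1. Of 17 other UPR sensors and ERAD genes 6 rose and 3 fell in UM-SCC-47, and 2 rose and 1 fell in UPCI-SCC-090. ERN1, which encodes IRE1, had 18.1, 16.7 and 20.7 CPM with JQ1, against 7.88, 8.24 and 8.51 CPM with DMSO in UM-SCC-47 (log2 fold change 1.16 ± 0.16 SE, adjusted p = 0.0022). The ERAD lectin gene OS9 (0.93) and EDEM2 (0.92) also rose there, while ATF6B (−0.90) and CREB3L2 (−0.38) fell. In UPCI-SCC-090 SELENOK (1.10) and MBTPS1, the protease that cleaves ATF6 (0.75), rose. MBTPS1 was called higher in UM-SCC-47 too (0.57, adjusted p = 0.012). That UM-SCC-47 call ended in 1 fit over the 12 libraries (adjusted p = 0.0793) and without DMSO replicate 1 or 3 (adjusted p = 0.0614 and 0.0641). ERN1 was not called in UPCI-SCC-090 (0.92, adjusted p = 0.061), but passed there as higher under 6 of 15 alternatives (adjusted p 0.011 to 0.0431). In UM-SCC-47 the adjusted p of EDEM2 became 0.0505 with DMSO replicate 3 left out, and that of CREB3L2 became 0.0521 to 0.163 with DMSO replicates 1, 2 and 3 and JQ1 replicates 1, 2 and 3 each left out in turn. That of CREB3L2 was 0.172 with RLE size factors and 0.331 with DESeq2. In UPCI-SCC-090 the adjusted p of SELENOK became 0.0544 to 0.169 with DMSO replicates 1, 2 and 3 and JQ1 replicates 1 and 3 each left out in turn, and that of MBTPS1 became 0.0672 to 0.126 with DMSO replicates 1, 2 and 3 and JQ1 replicates 1 and 2 each left out in turn. With library size alone it was 0.0853 for SELENOK and 0.129 for MBTPS1, and with DESeq2 0.0595 for MBTPS1. DERL3, a derlin of ERAD, fell in both lines. It had 1.52, 2.30 and 1.82 CPM with JQ1, against 9.54, 10.5 and 8.99 CPM with DMSO in UM-SCC-47 (log2 fold change −2.38 ± 0.22 SE, adjusted p = 0.00054). In UPCI-SCC-090 DERL3 had 1.24, 1.36 and 0.652 CPM with JQ1, against 4.59, 6.08 and 5.39 CPM with DMSO (log2 fold change −2.44 ± 0.33 SE, adjusted p = 0.0046).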

How the data were processed

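RNA-seq of the 12 libraries (3 per group) was used. The deposited values are estimated counts that the authors made with Salmon, without scaling (Salmon 0.8.2 and DESeq2 1.28.0 stand in the submitters' processing notes). For the transcript index and the genome build, the sources used here give no name. Because Salmon shares out reads between like transcripts, genes with near-identical copies, such as SLC7A5, CBS and PSPH, are uncertain. Counts were rounded and analyzed with R 4.3.3 and edgeR 4.0.16: filterByExpr (minimum count 10, minimum total 15), TMM, and the quasi-likelihood F test per line on 13440 genes in UM-SCC-47 and 13150 in UPCI-SCC-090, with Benjamini-Hochberg adjustment. The interaction and the comparison of the lines came from 1 fit of 14396 genes. SE is the absolute log2 fold change over the square root of F. The tests were also run on simulated data, with larger changes than most reported here and no GC trend between libraries. Those runs therefore do not bear on the calls above. Symbols, coordinates and GC content (canonical transcript) came from GENCODE 44 lifted to GRCh37 (20015 of 20738 IDs), promoters from RefSeq, GRCh38.p14.

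The members and lists were chosen with earlier results of these data known. All members are accounted for. Library values were given for ATF4, ATF5, DDIT3, HSPA5 and XBP1 and for members called in a line or by the interaction. Per line, other list and direction, up to 3 called genes with the largest change were named, if their groups did not overlap and the higher one averaged 5 CPM or more; further values shown are illustrations. Alternatives were RLE size factors, library size alone, no filter, DESeq2 1.42.0, 1 fit over all libraries, the replicate number as a block, a per-library GC correction (96.5% of IDs had a value), both together, leaving out each library, and leaving out the libraries of steepest GC trend.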

Additional observations from a re-analysis of the deposited data

Results flagged for a closer look

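Among the 39 members and the other genes named above, the response to JQ1 of 4 differed between the lines by edgeR's interaction test. The difference is the log2 fold change in UPCI-SCC-090 minus that in UM-SCC-47. Of all 14396 genes 6.56% differed by this test. Of the 78 other pathway genes tested 1 response was lower (ATF3) and 1 higher in UPCI-SCC-090. The higher one was among the eIF2 kinases, eIF2 and eIF2B, and is not named here. CTH differed by −1.71 (adjusted p = 0.013), with JQ1 above DMSO in all libraries of UM-SCC-47 and overlapping groups in UPCI-SCC-090. PSPH differed by 1.18 (adjusted p = 0.048), with JQ1 above DMSO in all libraries of UPCI-SCC-090 and below it in all of UM-SCC-47. NUPR1 differed by 6.30 (adjusted p = 0.00061), with 1 count in UM-SCC-47 JQ1 libraries. ATF3, which is outside the 39 genes, differed by −2.12 (adjusted p = 0.0064), with a log2 fold change of 0.28 in UPCI-SCC-090 and 2.51 in UM-SCC-47.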

How the results depend on the processing

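No result changed direction past the threshold under the alternatives run. The count of members lower with JQ1 in UM-SCC-47 was 5, and became 3 with RLE size factors, 11 with library size alone, 3 with DESeq2, 3 in 1 fit over the 12 libraries, 3 without the libraries of the steepest GC trends and 3 to 9 on leaving out 1 library (9 without JQ1 replicate 2). The count higher there was 11, and 8 to 15 on leaving out 1 library. In UPCI-SCC-090 the count lower was 2, and became 1 with RLE size factors, 1 with no filter, 1 with DESeq2 and 1 to 2 on leaving out 1 library. The count higher was 8, and became 4 with library size alone, 13 in 1 fit over the 12 libraries and 1 to 9 on leaving out 1 library (1 without DMSO replicate 3 or JQ1 replicate 1, 3 without DMSO replicate 2). The count that differed between the lines was 3, and became 5 with library size alone, 5 with the GC correction, 5 with the GC correction and the block, and 1 to 4 on leaving out 1 library (1 without UM-SCC-47 DMSO replicate 2 or 3). Between the DMSO libraries 13 to 18 members were lower (16 with all) and 4 to 7 higher (6 with all) in UPCI-SCC-090 on leaving out 1 library. Beyond fewer samples, the cause was not tested. Leaving out 1 library leaves a group of 2.

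Of the 16 calls in UM-SCC-47 11 held under all 15 alternatives, and of the 10 in UPCI-SCC-090 2 did. With RLE size factors the share of higher among all calls was 48.0% in UM-SCC-47 and 42.3% in UPCI-SCC-090, with library size alone 24.1% and 17.1%, with DESeq2 50.6% and 43.1%, and with TMM 38.7% and 27.4%. Over all genes, the calls higher in UPCI-SCC-090 were 1009 in the reported fit, 635 with library size alone, 1915 in 1 fit over the 12 libraries, 1714 with the GC correction, 2031 with the GC correction and the block, and as few as 371 without JQ1 replicate 1. The calls lower there were 2680, 1755 with RLE size factors and as few as 1009 without JQ1 replicate 1. The calls higher in UM-SCC-47 were 2163, 1348 in 1 fit over the 12 libraries and as few as 1198 without DMSO replicate 1. Genes whose response was lower or higher in UPCI-SCC-090 numbered 523 and 422, 1050 and 791 with the GC correction, 941 and 699 with the GC correction and the block, 326 lower without the libraries of the steepest GC trends, and 256 to 1123 lower and 201 to 652 higher on leaving out 1 library. Between the DMSO libraries 3348 genes were higher, and 2200 with the replicate block. With the replicate number as a block 5 members were lower and 12 higher in UM-SCC-47, 2 lower and 9 higher in UPCI-SCC-090, 3 differed between the lines, and 15 were lower and 5 higher between the DMSO libraries. Same-numbered libraries did not all deviate together (r from −0.15 to 0.43 in UM-SCC-47 and 0.10 to 0.79 in UPCI-SCC-090, across genes), so the numbers were not taken as pairs. Biological coefficients of variation of 31.6% in UM-SCC-47 and 46.95% in UPCI-SCC-090 limit what 3 libraries per group show.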
